A study of Drosophila melanogaster with 30 samples.

Results

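The comparison set 3 anterior midgut libraries from flies on a lipid-depleted diet (LD) against 3 from flies on the control diet (CD), chosen by their sample titles, 6 of the 30 libraries of the study. All 6 came from mated y[1]w[1] females aged 10 to 12 days, put on their diet as pupae and kept with males at 25 °C. Each library held poly(A) RNA from 30 to 50 dissected anterior regions (a1 to a3), so each value is an average over pooled animals and over all cell types of the region. The study also profiled the posterior midgut on both diets, a diet with 4 times the control cholesterol (0.2%), and the strains Hr96[1] and Hr96[2x]. Control and lipid-depleted flies were of the same strain and differed in the diet the labels name, whose recipe they do not give. Conditions were collected in triplicate, and no label says whether replicates came from separate cultures. The p-values therefore measure spread among libraries of the same group, pooled over all 30 libraries, and that spread may be partly technical. The pool includes the posterior midgut, the high-cholesterol diet and the Hr96 strains. The study as titled asked how dietary lipids act on Notch signalling, intestinal development and metabolism.

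Insects cannot make sterols and must take cholesterol from food. In the fly midgut, the membrane protein Npc1b takes up sterol, the small secreted or lumenal Npc2 proteins bind it, and lipases split dietary fat before absorption. The nuclear receptor Hr96 binds cholesterol and controls genes of sterol and triglyceride metabolism. Absorbed lipid leaves the gut on lipophorin particles, which cells take up through LDL-receptor-like proteins.

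All levels below are scaled FPKM (fragments per unit of gene length and of library depth, divided by a factor per library), and log2 differences are lipid-depleted minus control of log2(scaled FPKM + 1), a scale on which changes of weak genes come out too small. Without read counts in the files, absolute depth is unknown. Relative depth, read from the steps between low values, was 0.785 to 1.30 in the 6 libraries, with 10915 to 11473 genes above 0. Of 17488 genes, 20 had a failed estimate in at least 1 of these libraries and 103 in any of the 30, and these were left out. The genes left out include 83 that were estimated in all 6 compared libraries and failed in another, and the counts over tested genes do not cover them.

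Lipid-depleted libraries 2 and 3 stood apart from the other 4 libraries in genes marked as posterior, taken as a percentage of the posterior level on the same diet. Of 30 genes marked as posterior in the 18 libraries of the other diets and strains, the median stood at 7.02% and 7.18% of the posterior level on the same diet in lipid-depleted replicates 2 and 3. It stood at 0.320% in lipid-depleted replicate 1 and at 0.107%, 0.176% and 0.274% in the control libraries. These percentages divide by unlike posterior levels. Most of the 30 genes were lower in the posterior midgut on the lipid-depleted diet, such as CG8299, at 488 on the control and 14.4 on the lipid-depleted diet. The summed anterior level of the 30 genes was 463, 414 and 800 in the control libraries and 560, 953 and 986 in the lipid-depleted ones. A few genes make up much of these sums. CG9568 read 395, 310 and 450 in the control libraries and 467, 369 and 420 in the lipid-depleted ones. CG8628 read 364 and 342 in lipid-depleted replicates 2 and 3, and tRNA:SeC 266 in control replicate 3 and 0 in the others. Across the same 18 libraries, a called posterior excess of at least 3 log2 units marked 13 of the 138 called rises (9.42%) against 1.22% of all tested genes, and as much anterior excess marked 12 of the 126 called falls (9.52%) against 1.31%. Of 16 visceral muscle genes 15 were lower on the lipid-depleted diet, with a median log2 difference of −0.85. Limma called 0 of them, and 11 had an unadjusted p under 0.05. The mean log2 level of the list was 4.57 to 4.84 on the control and 3.79 to 4.06 on the lipid-depleted diet. In bulk tissue, fewer cells of a type and less RNA per cell cannot be told apart. Fat body genes had a mean log2 level of 5.18 in control replicate 1 against 3.17 and 3.22 in the other control libraries and 3.82 to 3.90 on the lipid-depleted diet. Malpighian tubule genes stood at 2.71 and 2.74 in lipid-depleted replicates 2 and 3 against 1.48 to 2.30 in the other 4 libraries. Uro, a member of this list, stood at 22.5 and 24 against 0 to 3.46. The summed level of the list did not set these replicates apart, at 271, 272 and 192 in the control libraries and 202, 246 and 257 in the lipid-depleted ones. Of its 8 tested genes limma called 0 (median log2 0.26), and 0 had an unadjusted p under 0.05. Enterocyte markers were high in all 6 libraries, with a mean log2 level of 6.17 to 6.93. Over all tested genes replicate 1 was the distant library of each diet, by the root mean square of the log2 differences. Lipid-depleted replicate 1 was 0.858 and 0.891 from replicates 2 and 3, which were 0.513 apart. On the control diet these distances were 0.762, 0.769 and 0.598. The part of these differences in the results was not tested.

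**Figure D1:**
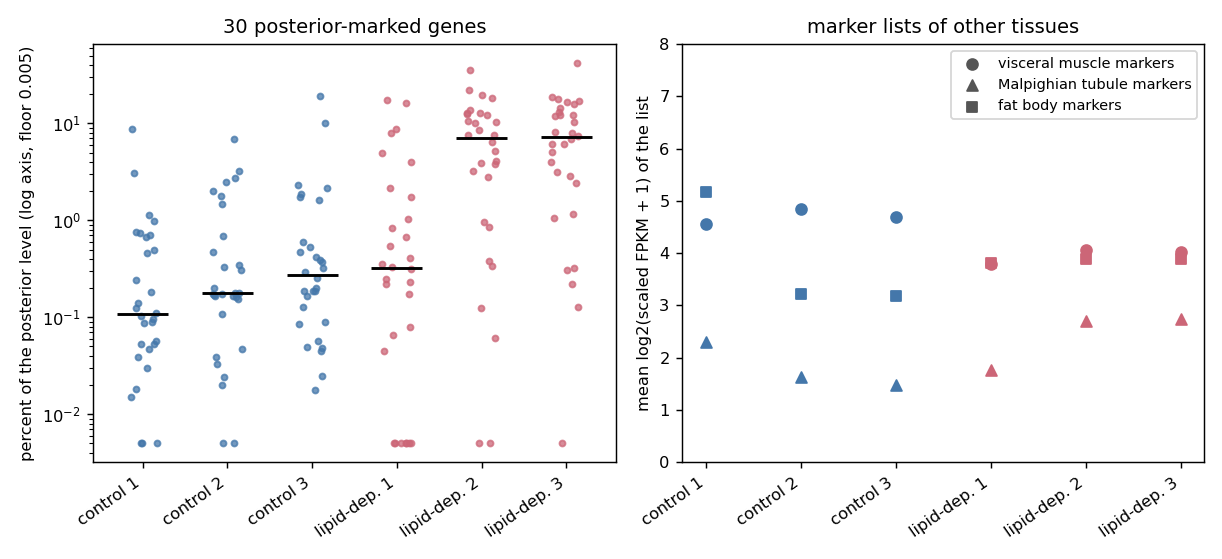
Left, the level of each of 30 posterior-marked genes in each anterior library as a percentage of the mean posterior level on the same diet (log axis, points at 0 drawn at the floor), with the median as a bar. Right, the mean log2(scaled FPKM + 1) of the visceral muscle, Malpighian tubule and fat body lists in each library. Lipid-depleted replicates 2 and 3 have medians of 7.02% and 7.18%, and the other 4 libraries stay at or under 0.320%.

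Limma, a linear model fitted across all genes with all 30 libraries sharing 1 estimate of the spread, called 264 of 8335 tested genes at a Benjamini-Hochberg adjusted p under 0.05 (3.17%). Of these, 138 were higher (1.66% of the tested genes) and 126 lower (1.51%) on the lipid-depleted diet. At least log2 1 separated the groups for 175 of them. The 3 values of each group did not overlap for 261 of the called genes and for 20.9% of all tested genes. The median log2 difference over all tested genes was −0.02, against which the list medians below stand. On FPKM as deposited, which set the median of all genes at log2 0.12, 190 genes were called higher and 64 lower. No called gene changed direction under any other scaling, pseudocount, filter or fit tried. Of the 103 genes named below that this fit called, 45 kept their call whichever of the 6 libraries was left out, and losses of the others are given beside them with their adjusted p. In a fit of the 6 libraries alone, which leaves 4 residual degrees of freedom, 148 genes were called and 61 of the 103 named genes lost their call. Leaving out lipid-depleted replicate 2 gave 144 calls, leaving out lipid-depleted replicate 3 gave 141 and leaving out control replicate 2 gave 115. Without lipid-depleted replicates 2 and 3 together, an alternative added after the data were seen, 123 genes were called, 86 of them among the 264, and 263 of the 264 kept their direction. With 3 libraries against 3, an exact permutation test of a single gene cannot give a p below 0.1, so each adjusted p rests on limma.

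**Figure D2:**
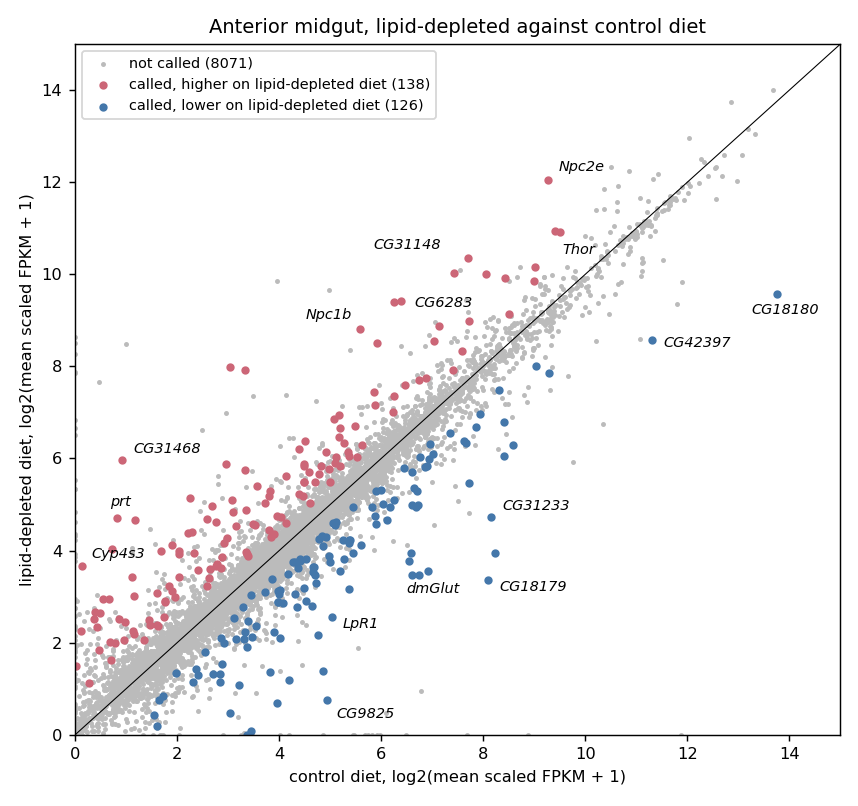
Mean level of each tested gene on the control diet (x) and on the lipid-depleted diet (y), as log2(mean scaled FPKM + 1), n = 3 libraries per diet; the line marks equal levels. Red points are the 138 genes called higher and blue points the 126 called lower on the lipid-depleted diet, and grey points were not called.

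Sterol uptake genes rose on the lipid-depleted diet. Of 13 tested genes of sterol transport and handling 4 were called, all higher, and the median was log2 0.35. Npc1b (FBgn0261675, chromosome X, 20934869 to 20939503 in dm6), the sterol uptake protein of enterocytes, read 51.6, 27.6 and 61.5 in the control libraries and 417, 454 and 465 in the lipid-depleted ones. Every lipid-depleted library lay above every control library, and the mean was 9.49-fold that of the control (log2 3.29, SE 0.45, adjusted p = 9.82e-05). Npc2e (FBgn0051410, chromosome 3R, 10053332 to 10054348), a sterol-binding Npc2 protein that overlaps the non-coding CR44192, read 651, 316 and 879.6 in the control libraries and 5733, 3442 and 3578 in the lipid-depleted ones. The lowest lipid-depleted library was well above the highest control one (6.9-fold, log2 2.87, SE 0.34, adjusted p = 2.59e-05). Npc2e was one of the most abundant of all called genes in these libraries.

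Npc2a (FBgn0031381, chromosome 2L, 1988290 to 1988940), the broadly expressed family member, read 167, 199 and 265 in the control libraries and 595, 451 and 459 in the lipid-depleted ones, with no overlap (2.39-fold, log2 1.27, SE 0.33, adjusted p = 0.0393). Its call was lost without lipid-depleted replicate 1, 2 or 3 or control replicate 1 or 2 (0.0808 to 0.146). The receptor gene Hr96 (FBgn0015240, chromosome 3R, 25025235 to 25029351) read 67.9, 43.4 and 61.2 in the control libraries and 179, 121 and 128 in the lipid-depleted ones (2.48-fold, log2 1.30, SE 0.24, adjusted p = 0.00271). Both groups were apart, with replicate 1 the highest of each, and the call held whichever library was left out, but not in a fit of the 6 libraries alone (0.066). The other 9 members were not called. Npc1a, which moves sterol out of late endosomes, read 15.1, 12.6 and 14.3 in the control libraries and 15.6, 18.7 and 20.2 in the lipid-depleted ones (log2 0.35, adjusted p = 0.545). Npc2b read 4.15, 3.91 and 3.9 in the control libraries and 5.63, 5.71 and 4.8 in the lipid-depleted ones (log2 0.35, adjusted p = 0.465). Start1, a StAR-related lipid transfer protein, read 14.8, 12.4 and 11.9 in the control libraries and 16.4, 15.6 and 17.2 in the lipid-depleted ones (log2 0.32, adjusted p = 0.465). Each of these 3 was higher without overlap, by under log2 0.4. CG8112, a predicted sterol acyltransferase that would store sterol as ester, had the lowest log2 difference of the list, at 5.8, 5.51 and 7.09 in the control libraries and 1.66, 2.27 and 1.74 in the lipid-depleted ones (log2 −1.30, adjusted p = 0.0789). Its groups did not overlap, and its adjusted p missed the threshold.

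Npc2f read 101, 11.5 and 41.4 in the control libraries and 241, 32.1 and 33 in the lipid-depleted ones (log2 0.78, adjusted p = 0.727), so that replicate 1 was the highest library on both diets. The remaining family members Npc2c, Npc2d and Npc2g stayed at or under 3.09 in each of the 6 libraries. The lipase and cholesterol esterase gene mag stayed between 0.416 and 1.35, where the posterior midgut had 99.3 ± 12.9 on the control diet (SD, n = 3).

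**Figure D3:**
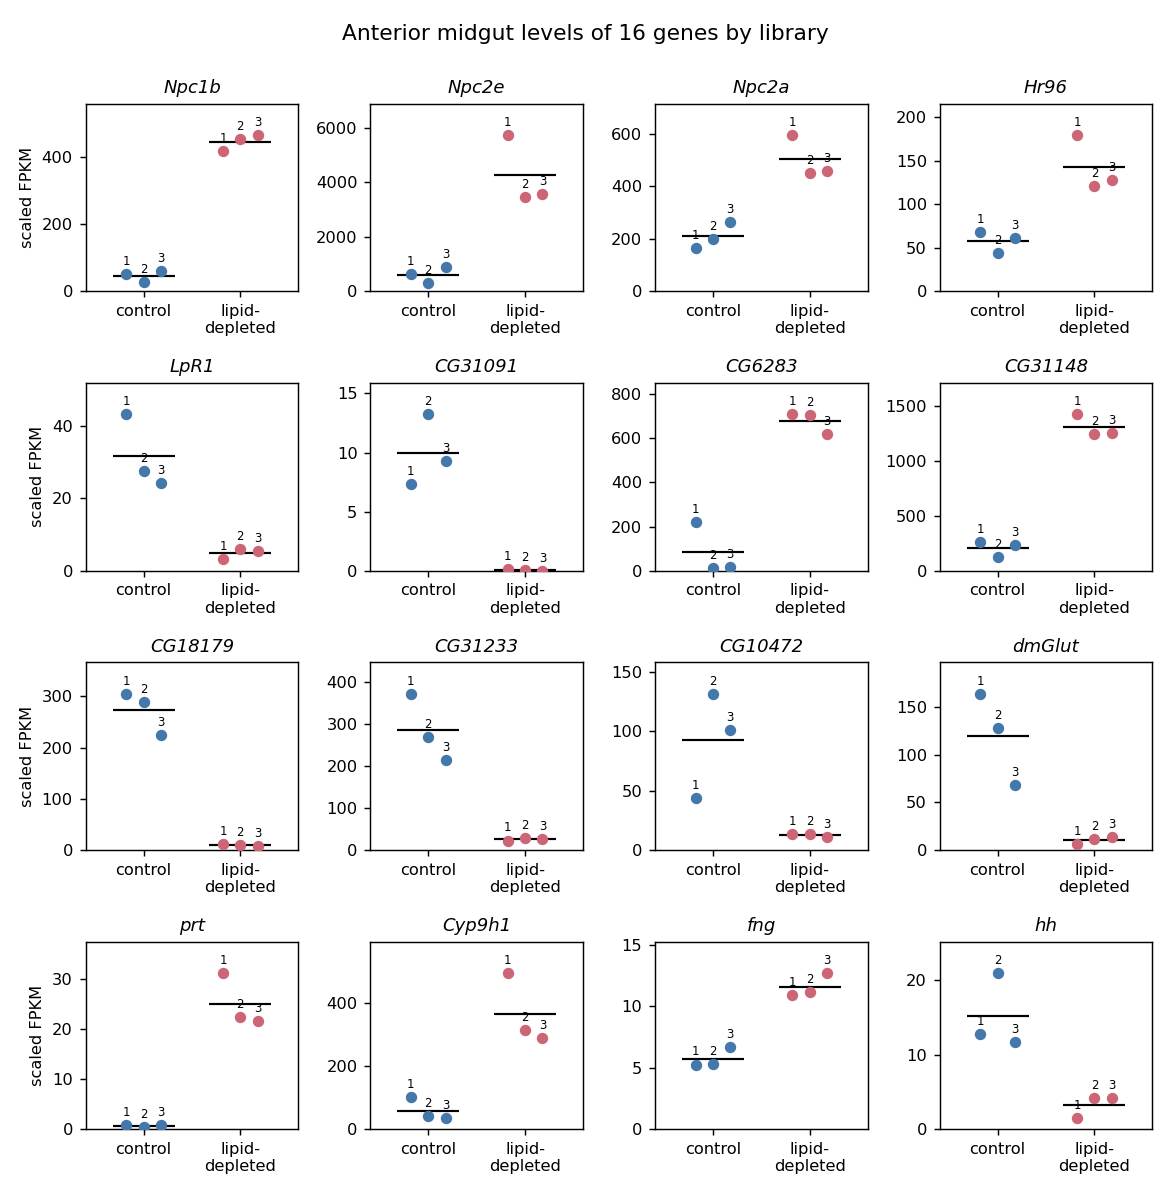
Scaled FPKM of 16 genes in each anterior library (points, with the replicate number) and the mean of 3 (bar), control in blue and lipid-depleted in red; each y axis starts at 0. In each of the 16 panels the 3 lipid-depleted values lie all above or all below the 3 control values.

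The lipophorin receptor gene LpR1 fell. LpR1 (FBgn0066101, chromosome 3R, 25741348 to 25763105) read 43.2, 27.6 and 24.3 in the control libraries and 3.13, 5.89 and 5.51 in the lipid-depleted ones, all lipid-depleted values being below all control values (6.54-fold lower, log2 −2.48, SE 0.49, adjusted p = 0.0047). It was the only called gene among 4 tested lipoprotein and receptor genes. The second lipophorin receptor gene LpR2 read 45.4, 32.5 and 40.9 in the control libraries and 30.6, 36.2 and 33.7 in the lipid-depleted ones, with overlapping groups (log2 −0.23, adjusted p = 0.856). Mtp, which loads lipid onto lipoproteins, read 6.92, 5.5 and 4.31 in the control libraries and 7.97, 4.85 and 5.58 in the lipid-depleted ones (log2 0.11, adjusted p = 0.937), and the Wnt co-receptor gene arr, of the same receptor family, was not called either (log2 0.25, adjusted p = 0.752).

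Of 21 tested lipase genes 4 fell and 1 rose. CG31091 (FBgn0051091, chromosome 3R, 25899903 to 25902172), a predicted acid lipase gene, read 7.36, 13.2 and 9.26 in the control libraries and 0.128, 0.0522 and 0 in the lipid-depleted ones, so that 2 lipid-depleted libraries were near 0 and 1 was listed at 0 (log2 −3.34, SE 0.53, adjusted p = 0.000549). Its relative CG31089 read 6.7, 10.3 and 11.1 on the control diet and was listed at 0 in all 3 lipid-depleted libraries (adjusted p = 0.000693). CG17192, a pancreatic-type lipase gene, read 32.1, 145 and 113 in the control libraries and 5.42, 12.5 and 12.4 in the lipid-depleted ones (log2 −2.96, adjusted p = 0.0265). CG5162 read 7.67, 13.9 and 10.4 in the control libraries and 5.59, 3.37 and 3.36 in the lipid-depleted ones (log2 −1.18, adjusted p = 0.0458). The CG17192 call was lost without lipid-depleted replicate 1, 2 or 3 or control replicate 2 or 3 (0.0598 to 0.167), and that of CG5162 without lipid-depleted replicate 2 or 3 or control replicate 2 or 3 (0.0956 to 0.238). In the other direction, CG6283 (FBgn0039474, chromosome 3R, 27020238 to 27021378), also of the pancreatic type, read 220.0, 11.5 and 17.7 in the control libraries and 709, 705 and 622 in the lipid-depleted ones. Control replicate 1 was far above the other control libraries and still below the lowest lipid-depleted one (8.17-fold, log2 4.19, SE 0.90, adjusted p = 0.00915), and the call was lost without control replicate 2 or 3 (0.0522 to 0.0894). CG6283 and CG17192 both lie within RYa-R, so reads of these genes cannot be told apart from it where they overlap.

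Among 23 tested genes of fatty acid synthesis, desaturation and elongation 2 rose and 1 fell, with a median of log2 0.39. Men, the malic enzyme that makes NADPH, read 173, 115 and 100.1 in the control libraries and 447, 346 and 331 in the lipid-depleted ones (2.9-fold, log2 1.55, SE 0.40, adjusted p = 0.0318). The elongase gene Baldspot read 259.6, 129.6 and 184 in the control libraries and 327, 309.8 and 327 in the lipid-depleted ones (log2 0.80, adjusted p = 0.0217). Both were higher in every lipid-depleted library. Zw, the glucose-6-phosphate dehydrogenase that is the other main source of NADPH, fell from 22.9, 38.2 and 31.8 to 12.4, 13.5 and 11.8 (2.46-fold lower, log2 −1.21, SE 0.28, adjusted p = 0.0167). The NADPH enzymes changed in opposite directions, each without overlap. CG9743, a predicted desaturase gene outside the list and chosen after its values were seen, read 341, 264 and 421 in the control libraries and 1061, 946 and 895 in the lipid-depleted ones (log2 1.52, adjusted p = 0.0204). Leaving out single libraries ended each of these calls. Men was lost without lipid-depleted replicate 1, 2 or 3 or control replicate 2 or 3 (0.0748 to 0.131), Baldspot without lipid-depleted replicate 1, 2 or 3 or control replicate 2 or 3 (0.0578 to 0.194), Zw without lipid-depleted replicate 1 or 3 or control replicate 2 or 3 (0.0522 to 0.121) and CG9743 without lipid-depleted replicate 1, 2 or 3 or control replicate 1 or 2 (0.057 to 0.13).

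Fatty acid activation and binding had 1 call each. The very-long-chain acyl-CoA synthetase gene bgm read 4.43, 4.28 and 6.29 in the control libraries and 16.2, 28.8 and 28.6 in the lipid-depleted ones (log2 2.06, adjusted p = 0.0424), a call lost whichever of the 6 libraries was left out (0.0511 to 0.162). The acyl-CoA binding protein gene CG8628 (Acbp3) read 5.93, 9.9 and 11.5 in the control libraries and 15.4, 364 and 342 in the lipid-depleted ones (log2 3.69, adjusted p = 0.0437). Lipid-depleted replicate 1 was close to the control libraries and replicates 2 and 3 were far above, and CG8628 is among the posterior-marked rises. Its call was lost without lipid-depleted replicate 2 or 3 or control replicate 1, 2 or 3 (0.0774 to 0.225). None of the 18 triglyceride synthesis, storage and breakdown genes (median log2 0.10), the 30 beta-oxidation genes (median log2 −0.04) or the 8 CD36-like scavenger receptor genes (median log2 0.09) was called by limma, with 7, 8 and 1 of them at an unadjusted p under 0.05.

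Of 19 tested genes of sphingolipid metabolism 4 rose and 2 fell, with a median of log2 0.03. The rises were in breakdown enzymes. CG31148 (Gba1a; FBgn0051148, chromosome 3R, 23700621 to 23702605), a glucocerebrosidase gene, read 258, 125 and 235 in the control libraries and 1421, 1244 and 1248 in the lipid-depleted ones (6.32-fold, log2 2.72, SE 0.61, adjusted p = 0.013). Its neighbour and paralogue CG31414 (Gba1b), which overlaps the non-coding CR44052, rose from 0.514, 0.446 and 0.272 to 6.3, 4.36 and 5.04 (log2 2.14, SE 0.37, adjusted p = 0.00107). Every lipid-depleted value was above every control value in both genes. CG15534, a predicted acid sphingomyelinase gene, read 0.316, 1.95 and 1.51 in the control libraries and 9.84, 30.9 and 31.8 in the lipid-depleted ones (log2 3.39, adjusted p = 0.0008). It is posterior-marked, with 598 ± 470.4 in the posterior control group. In the anterior libraries it stood at 4.02% of the posterior level on the same diet in lipid-depleted replicate 1 and 12.6% and 12.99% in replicates 2 and 3, against 0.0529%, 0.326% and 0.253% in the control libraries. The posterior mean was lower on the lipid-depleted diet, at 245. The call was lost in a fit of the 6 libraries alone (0.0512). Sply, the sphingosine-1-phosphate lyase, read 36.2, 29.7 and 34.7 in the control libraries and 64.7, 64.3 and 63.2 in the lipid-depleted ones (log2 0.92, adjusted p = 0.0423).

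The falls were in enzymes that add groups to sphingolipids. Cerk, the ceramide kinase, fell from 22.4, 30.0 and 22.8 to 11, 10.0 and 9.14 (log2 −1.23, SE 0.21, adjusted p = 0.00105). The glycosphingolipid mannosyltransferase gene egh fell from 77.1, 57.7 and 59 to 25.1, 33.9 and 35.3 (log2 −1.02, SE 0.18, adjusted p = 0.00135). Both were lower in every lipid-depleted library, and both calls held whichever library was left out. That of egh was lost on FPKM as deposited (0.0924) and in a fit of the 6 libraries alone (0.067). The CG31148 call was lost without control replicate 2 (0.0964) and that of Sply whichever of the 6 libraries was left out (0.0759 to 0.187).

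Phospholipid genes showed small changes. Of 18 tested genes 1 rose and 1 fell. CG5991 (Pisd), the phosphatidylserine decarboxylase, read 9.06, 9.08 and 9.38 in the control libraries and 15.4, 13.6 and 14.7 in the lipid-depleted ones (log2 0.61, adjusted p = 0.015). CG7149 read 12.3, 9.24 and 5.75 in the control libraries and 3.41, 3.37 and 4.23 in the lipid-depleted ones (log2 −1.06, adjusted p = 0.0354). Chosen after their values were seen, the lysophosphatidylcholine acyltransferase gene CG32699 (LPCAT) read 22.5, 18.5 and 19.1 in the control libraries and 29.6, 40.3 and 39.7 in the lipid-depleted ones (log2 0.83, adjusted p = 0.0146), the cardiolipin remodelling gene Taz 35.4, 54.5 and 31.3 in the control libraries and 15.5, 19.2 and 18.3 in the lipid-depleted ones (log2 −1.11, adjusted p = 0.0135), and the peroxisomal ABC transporter gene Pmp70 309.8, 234 and 184 in the control libraries and 120.3, 132 and 119.7 in the lipid-depleted ones (log2 −0.93, adjusted p = 0.033). None of these 5 genes overlapped between diets. The calls were lost for CG5991 without lipid-depleted replicate 1 or 3 or control replicate 1 or 2 (0.0508 to 0.0681), for CG7149 without lipid-depleted replicate 1, 2 or 3 or control replicate 1 or 2 (0.0702 to 0.174), for CG32699 without lipid-depleted replicate 2 or 3 or control replicate 2 or 3 (0.0515 to 0.0874), for Taz without lipid-depleted replicate 1 or control replicate 2 (0.0607 to 0.121) and for Pmp70 without lipid-depleted replicate 1, 2 or 3 or control replicate 1 or 2 (0.0755 to 0.162). Of 13 ABC transporters of subfamily G, CG9663 alone was called, at 22.2, 17.4 and 24.2 in the control libraries and 42.5, 44.7 and 44.7 in the lipid-depleted ones (log2 1.02, adjusted p = 0.0216), lost without lipid-depleted replicate 1, 2 or 3 or control replicate 1 or 2 (0.0525 to 0.14).

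Several digestive peptidase genes fell steeply. Of 34 tested Jonah and related chymotrypsin-like proteases 3 fell and 0 rose (median log2 −0.44). CG18179 (FBgn0036023, chromosome 3L, 9639271 to 9640140) read 305, 289 and 224 in the control libraries and 10.8, 9.39 and 7.7 in the lipid-depleted ones (29.3-fold lower, log2 −4.73, SE 0.36, adjusted p = 4.07e-08), the largest fall by log2 difference among the 264 called genes. Its neighbour CG18180 (FBgn0036024, chromosome 3L, 9641013 to 9641913), one of the most abundant genes of the control libraries, read 16744, 15808 and 8949 in the control libraries and 800.4, 784 and 700.3 in the lipid-depleted ones (18.2-fold lower, log2 −4.13, SE 0.89, adjusted p = 0.00987). CG10472 read 44, 132 and 101 in the control libraries and 13.2, 13.8 and 10.9 in the lipid-depleted ones (log2 −2.64, adjusted p = 0.000646). Lipid-depleted values were close together and below all control values in these 3 genes. CG18179 and CG18180 lie within fry and resemble each other, so reads could be shared, and the CG18180 call was lost without control replicate 2 (0.0528).

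Aminopeptidases were also called lower, 4 of 16, with 0 higher (median log2 −0.14). CG31233 (FBgn0051233, chromosome 3R, 21749853 to 21753237) read 373, 268 and 214 in the control libraries and 22.7, 28.5 and 25.6 in the lipid-depleted ones (11.1-fold lower, log2 −3.40, SE 0.35, adjusted p = 4.33e-06). CG8773 read 505, 312 and 195 in the control libraries and 57.7, 73.3 and 65.8 in the lipid-depleted ones (log2 −2.25, adjusted p = 0.000717). CG31198 read 887, 523 and 453 in the control libraries and 213, 242 and 237 in the lipid-depleted ones (log2 −1.36, adjusted p = 0.000646). These 3 encode M1-type aminopeptidases, and their calls held whichever library was left out, that of CG31198 not in a fit of the 6 libraries alone (0.0861). The puromycin-sensitive aminopeptidase gene Psa read 141, 178 and 166 in the control libraries and 102, 89.3 and 87.2 in the lipid-depleted ones (log2 −0.79, adjusted p = 0.0472), a call lost whichever of the 6 libraries was left out (0.0643 to 0.205).

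Trypsins were called in the other direction, 2 of 13 higher and 0 lower. lambdaTry read 10.6, 29.3 and 24.8 in the control libraries and 50.6, 58.4 and 59.9 in the lipid-depleted ones (log2 1.45, adjusted p = 0.0318) and iotaTry 0.713, 0.497 and 0.186 in the control libraries and 1.49, 9.65 and 8.9 in the lipid-depleted ones (log2 2.14, adjusted p = 0.00861). Both are posterior-marked, at 1082 ± 359 and 321 ± 130.1 in the posterior control group, and for iotaTry lipid-depleted replicate 1 lay nearer the control libraries than replicates 2 and 3. The iotaTry call was lost without lipid-depleted replicate 2 or 3 (0.0684 to 0.0703) and that of lambdaTry without lipid-depleted replicate 1, 2 or 3 or control replicate 1 (0.0612 to 0.186). Of 12 zinc carboxypeptidases CG18585 rose (log2 1.99, adjusted p = 0.0219) and CG18417 fell (log2 −1.33, adjusted p = 0.0462). CG18585, posterior-marked, read 3.25, 2.31 and 2.6 in the control libraries and 4.91, 21.4 and 22.8 in the lipid-depleted ones and was lost without lipid-depleted replicate 2 or 3 or control replicate 2 or 3 (0.0611 to 0.136). CG18417 read 80.4, 35.1 and 28 in the control libraries and 16.2, 16.9 and 16.5 in the lipid-depleted ones and was lost without lipid-depleted replicate 1, 2 or 3 or control replicate 1 or 2 (0.0884 to 0.264), its log2 difference being −0.88 without control replicate 1. None of 4 astacin metalloproteases was called by limma, with 1 at an unadjusted p under 0.05.

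Limma called none of 12 tested amylase and maltase genes, of which 10 were higher (median log2 0.75) and 3 had an unadjusted p under 0.05. Of 11 lysozyme, mannosidase and galactosidase genes the lysozyme-like CG16799 rose from 6.21, 9.06 and 8.44 to 22.3, 23.9 and 20.7 (log2 1.40, SE 0.25, adjusted p = 0.00177). Among 9 lysosomal proteases cathepsin B (CtsB1) read 632, 433 and 455 in the control libraries and 1222, 818 and 752 in the lipid-depleted ones (log2 0.86, adjusted p = 0.0474), lost without lipid-depleted replicate 1, 2 or 3 or control replicate 2 or 3 (0.057 to 0.223). Of 28 peritrophic matrix and chitin-binding genes Muc68E alone was called, lower, at 26.7, 56.5 and 39.1 in the control libraries and 17.1, 17.2 and 19.4 in the lipid-depleted ones (log2 −1.08, adjusted p = 0.0314), lost without lipid-depleted replicate 1, 2 or 3 or control replicate 2 or 3 (0.0735 to 0.223).

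Among the largest falls were 3 genes of predicted anion transporters of the SLC17 type, a family for which no list was tested. CG9825 (FBgn0034783, chromosome 2R, 22837361 to 22839291) read 13.3, 41.6 and 33.9 in the control libraries and 0.592, 0.526 and 0.921 in the lipid-depleted ones (43.5-fold lower, log2 −4.05, SE 0.60, adjusted p = 0.00028). CG9864 (FBgn0034490, chromosome 2R, 20248130 to 20254670) read 139, 120.0 and 60.1 in the control libraries and 2.89, 14.2 and 13.2 in the lipid-depleted ones (log2 −3.42, SE 0.58, adjusted p = 0.000914), and dmGlut (FBgn0010497, chromosome 2L, 12027438 to 12034122) read 164, 128 and 68.4 in the control libraries and 6.37, 11.7 and 14 in the lipid-depleted ones (log2 −3.35, SE 0.45, adjusted p = 9.82e-05). In all 3 the lipid-depleted libraries were below the control ones, and the calls held whichever library was left out, that of CG9864 not in a fit of the 6 libraries alone (0.0691). CG9826, of the same family and chosen after its values were seen, read 18.7, 14.7 and 6.19 in the control libraries and 0.245, 2.52 and 1.91 in the lipid-depleted ones (log2 −2.48, adjusted p = 0.0375), lost without lipid-depleted replicate 1, 2 or 3 or control replicate 1 or 2 (0.0549 to 0.157). The citrate transporter gene Indy, also chosen so, read 94.7, 155.9 and 96.5 in the control libraries and 61.5, 52.2 and 51.1 in the lipid-depleted ones (log2 −1.03, adjusted p = 0.0143), lost without lipid-depleted replicate 2 or 3 or control replicate 2 (0.0598 to 0.131).

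Among nutrient transporters, 1 of 21 sugar transporters rose, CG8249 (29.8, 21.1 and 17.9 in the control libraries and 62.5, 46.4 and 43.8 in the lipid-depleted ones; log2 1.13, adjusted p = 0.0223), and 1 of 24 amino acid and peptide transporters fell, CG8785 (209.6, 208 and 191 in the control libraries and 68.4, 85 and 87 in the lipid-depleted ones; log2 −1.34, adjusted p = 0.00861). Both groups were apart in each gene. The CG8249 call was lost without lipid-depleted replicate 1 or 2 or control replicate 2 or 3 (0.0563 to 0.105), and that of CG8785 held whichever library was left out but not on FPKM as deposited (0.0726).

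Of 32 tested metal handling genes 1 was called higher and 1 lower (6.25%, against 3.17% of all tested genes). The copper importer gene Ctr1B rose, from 39.6, 33.8 and 24.8 to 161, 89.3 and 92.7 (3.49-fold, log2 1.74, SE 0.44, adjusted p = 0.0268). The ABC transporter gene CG10505 fell, from 159.7, 636 and 349 to 60.5, 84.4 and 87.1 (4.93-fold lower, log2 −2.09, SE 0.35, adjusted p = 0.000914). Neither overlapped between diets. The CG10505 call was lost in a fit of the 6 libraries alone (0.134). The Ctr1B call was lost without lipid-depleted replicate 1, 2 or 3 or control replicate 2 or 3 (0.0533 to 0.121). The extracellular superoxide dismutase gene Sod3 was the 1 call among 20 antioxidant genes, at 24.8, 23.9 and 17.3 in the control libraries and 7.11, 5.61 and 6.63 in the lipid-depleted ones (log2 −1.62, adjusted p = 0.0464), lost whichever of the 6 libraries was left out (0.0629 to 0.169).

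Of 7 tested dopamine and pteridine genes 2 rose. The vesicular monoamine transporter-like gene prt (FBgn0043005, chromosome 3R, 23696372 to 23699027) read 0.934, 0.414 and 0.959 in the control libraries and 31.2, 22.4 and 21.6 in the lipid-depleted ones (32.6-fold, log2 3.88, SE 0.63, adjusted p = 0.000675). The tyrosine hydroxylase gene ple, whose enzyme makes the dopamine precursor, read 0.0167, 0.227 and 0.0258 in the control libraries and 1.5, 5.46 and 4.43 in the lipid-depleted ones (log2 2.03, SE 0.46, adjusted p = 0.0149). For prt lipid-depleted replicate 1 was the highest library, whereas for ple it was the lowest of the 3 lipid-depleted ones. The ple call was lost without lipid-depleted replicate 2 or 3 or control replicate 1 (0.0524 to 0.0901).

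Of 30 tested glutathione transferases 26 were higher, with a median of log2 0.43, but 3 were called higher and 1 lower. GstE3 read 236, 236 and 326 in the control libraries and 1831, 695 and 572 in the lipid-depleted ones (log2 1.77, adjusted p = 0.0437), GstD3 13.7, 25.5 and 25.9 in the control libraries and 150.2, 49.2 and 48.8 in the lipid-depleted ones (log2 1.72, adjusted p = 0.0196) and GstD4 8.09, 14.2 and 16.8 in the control libraries and 65.4, 24.2 and 25.3 in the lipid-depleted ones (log2 1.39, adjusted p = 0.0468). In all 3 genes lipid-depleted replicate 1 was far above replicates 2 and 3, which were themselves above the control libraries. GstD3 and GstD4 are close paralogues whose reads may be shared. GstS1 fell from 87.4, 109 and 93.1 to 59.4, 48.3 and 44.7 (log2 −0.92, adjusted p = 0.0204). The calls were lost for GstE3 without lipid-depleted replicate 1 or 2 or control replicate 1, 2 or 3 (0.0618 to 0.22), for GstD3 without lipid-depleted replicate 1 or control replicate 1 (0.111 to 0.126), for GstD4 without lipid-depleted replicate 1 or 3 or control replicate 1 or 2 (0.057 to 0.241) and for GstS1 without lipid-depleted replicate 2 or 3 or control replicate 2 (0.079 to 0.123).

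Of 58 cytochrome P450 genes 2 rose and 0 fell. Cyp9h1 (FBgn0033775, chromosome 2R, 12840813 to 12842558) read 101, 41 and 34.9 in the control libraries and 493, 312 and 289 in the lipid-depleted ones (6.17-fold, log2 2.73, SE 0.41, adjusted p = 0.000362). Cyp4s3, which overlaps Rab3-GEF, read 0.183, 0.0272 and 0.103 in the control libraries and 6.76, 14.3 and 14.1 in the lipid-depleted ones (log2 3.46, SE 0.35, adjusted p = 4.33e-06). Both groups were apart in each gene and both calls held whichever library was left out, that of Cyp9h1 not in a fit of the 6 libraries alone (0.0564). Cyp4s3 is posterior-marked (23.2 ± 3.27 in the posterior control group). Of 22 UDP-glycosyltransferases 2 fell. Ugt37a1 read 57.4, 11.5 and 9.95 in the control libraries and 3.97, 3.45 and 3.09 in the lipid-depleted ones (log2 −2.15, adjusted p = 0.0474), with control replicate 1 far above the rest, and its log2 difference was −1.38 without that library. CG10178 (Ugt301D1) read 28.6, 21.5 and 22.5 in the control libraries and 10.0, 10.4 and 11.4 in the lipid-depleted ones (log2 −1.11, adjusted p = 0.0472). These calls were lost without lipid-depleted replicate 1, 2 or 3 or control replicate 1 or 2 (0.0681 to 0.283) for Ugt37a1 and whichever of the 6 libraries was left out (0.0838 to 0.162) for CG10178.

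Of 34 tested genes of central metabolism 2 were called lower and 1 higher (8.82%, against 3.17% of all tested genes). The mitochondrial aconitase gene Acon, which turns citrate into isocitrate, fell from 544, 594 and 425 to 259, 269.8 and 242 (2.03-fold lower, log2 −1.004, SE 0.15, adjusted p = 0.000362). Irp-1B, a cytosolic protein of the aconitase family, fell from 214, 277 and 202 to 93.2, 108 and 103 (log2 −1.17, SE 0.18, adjusted p = 0.000417). Neither overlapped between diets, and both calls held whichever library was left out, that of Acon not in a fit of the 6 libraries alone (0.0515). The oxoglutarate dehydrogenase gene Nc73EF (Ogdh) fell less, from 112, 139.9 and 119.6 to 86.7, 77.5 and 71.1 (log2 −0.65, adjusted p = 0.0215), a call lost without lipid-depleted replicate 2 or 3 or control replicate 2 (0.0741 to 0.142) and on FPKM as deposited (0.519). CG10924 (Pepck2), an enzyme of gluconeogenesis, rose from 8.22, 7.97 and 11.4 to 32.2, 26.2 and 27.5 (3.11-fold, log2 1.55, SE 0.29, adjusted p = 0.00255). Of 19 serine and one-carbon genes pug, a folate enzyme, fell (14.6, 18.2 and 12.9 in the control libraries and 7.49, 8.4 and 7.81 in the lipid-depleted ones; log2 −0.86, adjusted p = 0.0244), lost without lipid-depleted replicate 1, 2 or 3 or control replicate 1 or 2 (0.0611 to 0.165).

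Of 30 tested insulin, TOR and starvation genes 2 rose and 21 were lower (median log2 −0.15). Thor, the 4E-BP translation repressor, read 771, 584 and 673 in the control libraries and 2544, 1710.0 and 1675 in the lipid-depleted ones (2.92-fold, log2 1.53, SE 0.40, adjusted p = 0.0375). ImpL2, a secreted protein that binds insulin-like peptides, read 89.7, 95.8 and 231 in the control libraries and 373, 518 and 514 in the lipid-depleted ones (3.37-fold, log2 1.87, SE 0.45, adjusted p = 0.0217). Both rose without overlap, and control replicate 3 was the highest control library for ImpL2. The Thor call was lost whichever of the 6 libraries was left out (0.066 to 0.162) and that of ImpL2 without lipid-depleted replicate 2 or 3 or control replicate 1 or 2 (0.0853 to 0.131). cu, the fly Nocturnin and chosen after its values were seen, read 16.3, 10.5 and 22.8 in the control libraries and 63.8, 42.1 and 38.3 in the lipid-depleted ones (log2 1.51, SE 0.27, adjusted p = 0.00177), a call lost in a fit of the 6 libraries alone (0.103). Of 20 autophagy genes 18 were higher, by a median of log2 0.11, and Atg18a alone was called (35.3, 26.7 and 30.3 in the control libraries and 47.4, 42.4 and 41.5 in the lipid-depleted ones; log2 0.50, adjusted p = 0.0437), lost without lipid-depleted replicate 1, 2 or 3 or control replicate 2 or 3 (0.0865 to 0.241).

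Beside Hr96, 1 of 10 tested nuclear receptors was called. ERR, the estrogen-related receptor, a regulator of carbohydrate metabolism, read 13, 9.13 and 9.58 in the control libraries and 28.4, 18 and 20.7 in the lipid-depleted ones (2.11-fold, log2 1.004, SE 0.22, adjusted p = 0.013), a call lost without lipid-depleted replicate 1 or control replicate 2 or 3 (0.0514 to 0.0874). ERR overlaps CG7979 and the non-coding CR45869. The fatty acid receptor gene Hnf4 read 16.5, 16.5 and 17 in the control libraries and 23, 23.9 and 25.7 in the lipid-depleted ones (log2 0.51, adjusted p = 0.207) and Hr78 13.2, 12.6 and 10.9 in the control libraries and 14.5, 14.4 and 14.9 in the lipid-depleted ones (log2 0.24, adjusted p = 0.515), both higher without overlap and not called. Eip75B read 21.7, 18.4 and 17.7 in the control libraries and 7.67, 17.4 and 17.2 in the lipid-depleted ones (log2 −0.50, adjusted p = 0.508), with 2 lipid-depleted libraries just under the control ones. Of 43 ecdysteroid kinase-like genes CG5126 (log2 0.72, adjusted p = 0.0365) and CG31436 (log2 0.80, adjusted p = 0.0429) rose, from 12.1, 18.6 and 15.4 to 26.9, 25 and 24.8 and from 24.5, 34.9 and 32.5 to 58.6, 49.4 and 52.3. Their calls were lost without lipid-depleted replicate 1, 2 or 3 or control replicate 1 or 3 (0.0749 to 0.175) and whichever of the 6 libraries was left out (0.0688 to 0.186). Of 14 juvenile hormone and takeout genes Jheh3, an epoxide hydrolase, fell from 415, 359 and 247 to 109.9, 113 and 107 (log2 −1.59, SE 0.29, adjusted p = 0.00219).

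Immune genes gave 3 calls among 30 antimicrobial peptide and peptidoglycan recognition genes, of which 15 were higher and 15 lower in all. DptB read 1.87, 16.1 and 3.58 in the control libraries and 5.75, 362 and 385 in the lipid-depleted ones (log2 4.01, adjusted p = 0.0393). Lipid-depleted replicates 2 and 3 were far above all other libraries, and replicate 1 lay below control replicate 2. The call was lost without lipid-depleted replicate 2 or 3 or control replicate 1 or 3 (0.102 to 0.221). AttC went the other way, from 4.81, 12.7 and 10.5 to 3.29, 2.93 and 2.1 (log2 −1.38, adjusted p = 0.00861), lost without lipid-depleted replicate 3 or control replicate 2 (0.057 to 0.0876). The NF-kappaB factor gene dl read 24, 22.4 and 23.6 in the control libraries and 35.9, 30.2 and 29.4 in the lipid-depleted ones (log2 0.43, adjusted p = 0.048), lost whichever of the 6 libraries was left out (0.0758 to 0.195).

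Notch pathway genes showed 2 calls, both higher, among 23 tested genes (median log2 0.14). fng (FBgn0011591, chromosome 3L, 20925891 to 20949512), the glycosyltransferase that modifies the Notch receptor, read 5.28, 5.28 and 6.67 in the control libraries and 10.9, 11.2 and 12.7 in the lipid-depleted ones (2.02-fold, log2 0.91, SE 0.19, adjusted p = 0.00765), and its call held whichever library was left out. fng overlaps CG10589, and the kit does not mark strand. aph-1, a subunit of the gamma-secretase that releases the Notch intracellular domain, read 23.3, 20.5 and 19 in the control libraries and 39.1, 33.9 and 33.1 in the lipid-depleted ones (1.69-fold, log2 0.73, SE 0.16, adjusted p = 0.013), lost without lipid-depleted replicate 1 or control replicate 2 or 3 (0.0576 to 0.0622). The receptor gene N read 0.756, 0.99 and 1.06 in the control libraries and 0.625, 1.51 and 1.15 in the lipid-depleted ones (log2 0.10, adjusted p = 0.95) and the ligand gene Dl 1.13, 1.75 and 1.71 in the control libraries and 1.3, 2.93 and 2.46 in the lipid-depleted ones (log2 0.33, adjusted p = 0.686). The target gene E(spl)m3-HLH read 14, 19.7 and 14.8 in the control libraries and 14.5, 22.4 and 22.8 in the lipid-depleted ones (log2 0.27, adjusted p = 0.893). Another target gene, E(spl)mbeta-HLH, read 10.2, 15.1 and 17.7 in the control libraries and 18, 21.4 and 19.2 in the lipid-depleted ones, higher in each lipid-depleted library (log2 0.45, adjusted p = 0.822). For N and Dl lipid-depleted replicates 2 and 3 were the 2 highest of the 6 libraries and replicate 1 was within or below the control values. Without replicates 2 and 3 the log2 differences were −0.25 and −0.13.

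None of 10 stem cell and enteroblast genes was called by limma, and 0 had an unadjusted p under 0.05, though 9 were higher (median log2 0.34). The progenitor factor gene esg read 8.12, 9.76 and 8.57 in the control libraries and 8.69, 14.2 and 14 in the lipid-depleted ones (log2 0.41, adjusted p = 0.616). mira read 2.87, 4.11 and 4.02 in the control libraries and 3.76, 6.42 and 6.57 in the lipid-depleted ones (log2 0.48, adjusted p = 0.829). In both genes lipid-depleted replicates 2 and 3 were the highest, and replicate 1 was among the control values. None of 30 cell cycle and replication genes was called either (median log2 0.12), and 0 had an unadjusted p under 0.05.

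Enteroendocrine genes gave 2 calls among 15, both higher (median log2 0.23), and both in peptide genes marked posterior. CCHa1 read 1.79, 0.187 and 0.946 in the control libraries and 2.45, 5.74 and 5.3 in the lipid-depleted ones (log2 1.503, adjusted p = 0.0067) and AstA 0.11, 0.271 and 0.529 in the control libraries and 0.625, 7.87 and 7.56 in the lipid-depleted ones (log2 1.95, adjusted p = 0.0143). For AstA, lipid-depleted replicate 1 was near the highest control library. The posterior control group had 37.7 ± 10.4 and 87.9 ± 30.8. The CCHa1 call was lost without lipid-depleted replicate 2 or control replicate 2 (0.0517 to 0.0777) and that of AstA without lipid-depleted replicate 2 or 3 or control replicate 1 or 2 (0.0604 to 0.107). Tk read 56.4, 36.1 and 25.5 in the control libraries and 42.7, 48.5 and 43 in the lipid-depleted ones (log2 0.25, adjusted p = 0.869), NPF 31.1, 4.94 and 25.5 in the control libraries and 10.8, 11.9 and 11 in the lipid-depleted ones (log2 −0.49, adjusted p = 0.82) and CCHa2 154, 25.3 and 19.3 in the control libraries and 95.8, 115 and 131 in the lipid-depleted ones (log2 1.38, adjusted p = 0.465). The groups overlapped for these 3 peptide genes, with single control libraries apart from the others.

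The ligand gene hh (FBgn0004644, chromosome 3R, 23128169 to 23141906), chosen after its values were seen, read 12.8, 20.9 and 11.7 in the control libraries and 1.56, 4.19 and 4.17 in the lipid-depleted ones (4.58-fold lower, log2 −1.93, SE 0.31, adjusted p = 0.000632), and the call held whichever library was left out but not in a fit of the 6 libraries alone (0.0747). pnt, the ETS factor downstream of EGFR signalling, read 19.1, 26.1 and 18.7 in the control libraries and 3.87, 10.2 and 10.4 in the lipid-depleted ones (log2 −1.37, adjusted p = 0.0331), the 1 call among 18 JAK/STAT and EGFR genes. The zinc finger gene odd, of 20 regional transcription factors, read 46.9, 38.9 and 26.3 in the control libraries and 7.24, 17.5 and 14.5 in the lipid-depleted ones (log2 −1.49, adjusted p = 0.0268). For all 3, lipid-depleted replicate 1 was the lowest library. The pnt call was lost without lipid-depleted replicate 1 or control replicate 1, 2 or 3 (0.058 to 0.185) and that of odd without lipid-depleted replicate 1 or 3 or control replicate 1 or 2 (0.057 to 0.145).

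Of the 264 called genes 73 were members of a list, and the others included some of the largest changes. CG31468 (FBgn0047351, chromosome 3R, 23699328 to 23700354) had the largest rise among the tested genes, from 0.963, 1.19 and 0.542 to 104, 38.3 and 41.3 (68-fold, log2 4.89, SE 0.66, adjusted p = 9.82e-05). rau, an adaptor that sustains Ras signalling, rose from 0.421, 0.602 and 0.949 to 9.61, 17.7 and 18.6 (23.3-fold, log2 3.26, SE 0.42, adjusted p = 6.67e-05). CG7381 rose from 89.6, 35.6 and 101 to 895, 605 and 531 (log2 3.25, SE 0.44, adjusted p = 9.82e-05), and CG9336 (bero), a Ly6-type membrane protein gene, from 3.69, 5.32 and 11.3 to 38.8, 64.9 and 69.4 (log2 2.99, SE 0.52, adjusted p = 0.0012). CG13135 rose from 3.34, 3.26 and 4.72 to 31.1, 32.2 and 39.4 (log2 2.89, SE 0.30, adjusted p = 4.33e-06). In each of these 5 genes the lowest lipid-depleted value was over the highest control value, and the calls held whichever library was left out. CG34040 read 338, 71.5 and 105 in the control libraries and 1509, 802 and 811 in the lipid-depleted ones (log2 2.85, adjusted p = 0.0195), lost without lipid-depleted replicate 1 or control replicate 2 or 3 (0.0688 to 0.142).

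Some larger differences stood among the 83 genes left out for a failed estimate in other libraries. Limma on the 6 libraries alone, over the 8089 genes estimated in these 6 with a mean of at least 1, was added after the data were seen and called 217 genes (2.68%). It held 56 of the 83, of which 5 rose and 7 fell. CG7916 read 33.2, 10.5 and 32.5 in the control libraries and 3114, 1649.9 and 1529.6 in the lipid-depleted ones (log2 6.396, adjusted p = 0.00349). CG7953 read 152, 51.6 and 177 in the control libraries and 10208, 6712 and 6261 in the lipid-depleted ones (log2 6.06, adjusted p = 0.00392). Both rose by more on the log2 scale than CG31468. CG8997 read 486, 318 and 341 in the control libraries and 13296, 7988 and 7746 in the lipid-depleted ones (log2 4.64, adjusted p = 0.00236) and CG7968 49, 44.7 and 79.4 in the control libraries and 999.7, 642 and 645 in the lipid-depleted ones (log2 3.71, adjusted p = 0.00349). CG33306 read 0.921, 5.54 and 1.68 in the control libraries and 37, 74.8 and 76.4 in the lipid-depleted ones (log2 4.23, adjusted p = 0.0138), with lipid-depleted replicate 1 below replicates 2 and 3. In the other 4 rises replicate 1 was the highest library.

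Among the 7 falls were 2 Jonah serine proteases. Jon99Cii read 4559.7, 4298 and 3909 in the control libraries and 58.5, 157 and 118 in the lipid-depleted ones (log2 −5.36, adjusted p = 0.00236) and Jon99Ciii 2831, 4106 and 3616 in the control libraries and 28.4, 133 and 110.2 in the lipid-depleted ones (log2 −5.52, adjusted p = 0.00961), both with every lipid-depleted value far below every control value. CG12374, a predicted zinc carboxypeptidase gene, read 8626, 14580.4 and 12248 in the control libraries and 664, 507 and 462 in the lipid-depleted ones (log2 −4.42, adjusted p = 0.00236). The other 4 were lysozyme genes, whose products split bacterial cell walls. These 4 lie together on chromosome 3L, and Jon99Cii and Jon99Ciii lie together on chromosome 3R. LysD, the most abundant of them, read 16154, 16784 and 10404 in the control libraries and 3306, 3105 and 3077 in the lipid-depleted ones (log2 −2.16, adjusted p = 0.0174). LysB read 3752, 4379 and 2521 in the control libraries and 531, 580.2 and 494 in the lipid-depleted ones (log2 −2.69, adjusted p = 0.00744). The differences of LysC (log2 −2.31, adjusted p = 0.0318) and LysE (log2 −2.01, adjusted p = 0.0381) passed by less. Jon99Cii and Jon99Ciii, and the lysozyme genes among themselves, are close paralogues whose values are uncertain, since the files do not say how reads shared between copies were assigned. The trypsin genes alphaTry (log2 −0.48, adjusted p = 0.715), betaTry (log2 0.09, adjusted p = 0.957) and deltaTry (log2 0.68, adjusted p = 0.654) and the amylase gene Amy-p (log2 0.22, adjusted p = 0.9) did not pass. No alternative other than this fit was run on these genes.

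Among the falls outside the lists, CG7567 read 122, 563 and 211 in the control libraries and 1.4, 22.2 and 19.5 in the lipid-depleted ones (log2 −4.55, adjusted p = 0.0198), lost without lipid-depleted replicate 1 or control replicate 2 (0.118 to 0.133). CG15695 fell from 31.1, 18.9 and 33.7 to 1.02, 2.22 and 1.65 (log2 −3.44, SE 0.46, adjusted p = 9.82e-05), CG15202 from 9.44, 28.5 and 13.7 to 1.08, 1.38 and 1.41 (log2 −2.86, adjusted p = 0.00376) and CG42397 from 2776, 3049 and 1805 to 439, 333 and 368 (log2 −2.71, SE 0.54, adjusted p = 0.0043). CG11741 read 29, 7.6 and 7.22 in the control libraries and 0.73, 0.261 and 0.822 in the lipid-depleted ones (log2 −3.02, adjusted p = 0.00835), lost without control replicate 1 (0.0643). CG6659 fell from 111, 121 and 81.4 to 35.1, 28.9 and 28 (log2 −1.72, SE 0.22, adjusted p = 8.20e-05) and CG13957 (SWIP), of the WASH complex, rose from 4.93, 4.86 and 6.36 to 41.1, 25.1 and 24.3 (log2 2.26, SE 0.25, adjusted p = 8.60e-06). CG13957 overlaps Cyp1, which was called higher too. Calls of the 5 genes for which no loss is given held whichever library was left out.

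Large housekeeping groups had small median differences, but their lipid-depleted replicates parted. The mean log2 level of the cytosolic ribosomal list was 11.06, 10.39 and 10.27 in lipid-depleted replicates 1, 2 and 3. On the control diet it was 10.62 to 10.72. For oxidative phosphorylation it was 7.72, 7.12 and 7.04 against 7.38 to 7.57. In both lists lipid-depleted replicate 1 stood above and replicates 2 and 3 below every control library, so the medians average opposite shifts. Of 82 tested cytosolic ribosomal protein genes 74 were lower, by a median of log2 −0.12, and of 69 oxidative phosphorylation genes 64 were lower, by a median of log2 −0.16, with none called by limma and 0 and 4 at an unadjusted p under 0.05. Limma also called none among 73 mitochondrial ribosomal protein genes (median log2 0.01), 22 vacuolar ATPase subunits (−0.22), 31 proteasome subunits (0.06), 23 genes of the unfolded protein response (−0.07), 17 heat shock genes (−0.37), 11 clock genes (−0.09) or 20 septate junction genes (0.07). At an unadjusted p under 0.05 stood 1, 2, 0, 3, 2, 4 and 1 of these in turn, and 1167 of all tested genes. On FPKM as deposited, where the median of all genes was log2 0.12, each of the small list medians shifts by about that amount, so their sign is not a result.

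**Figure D4:**
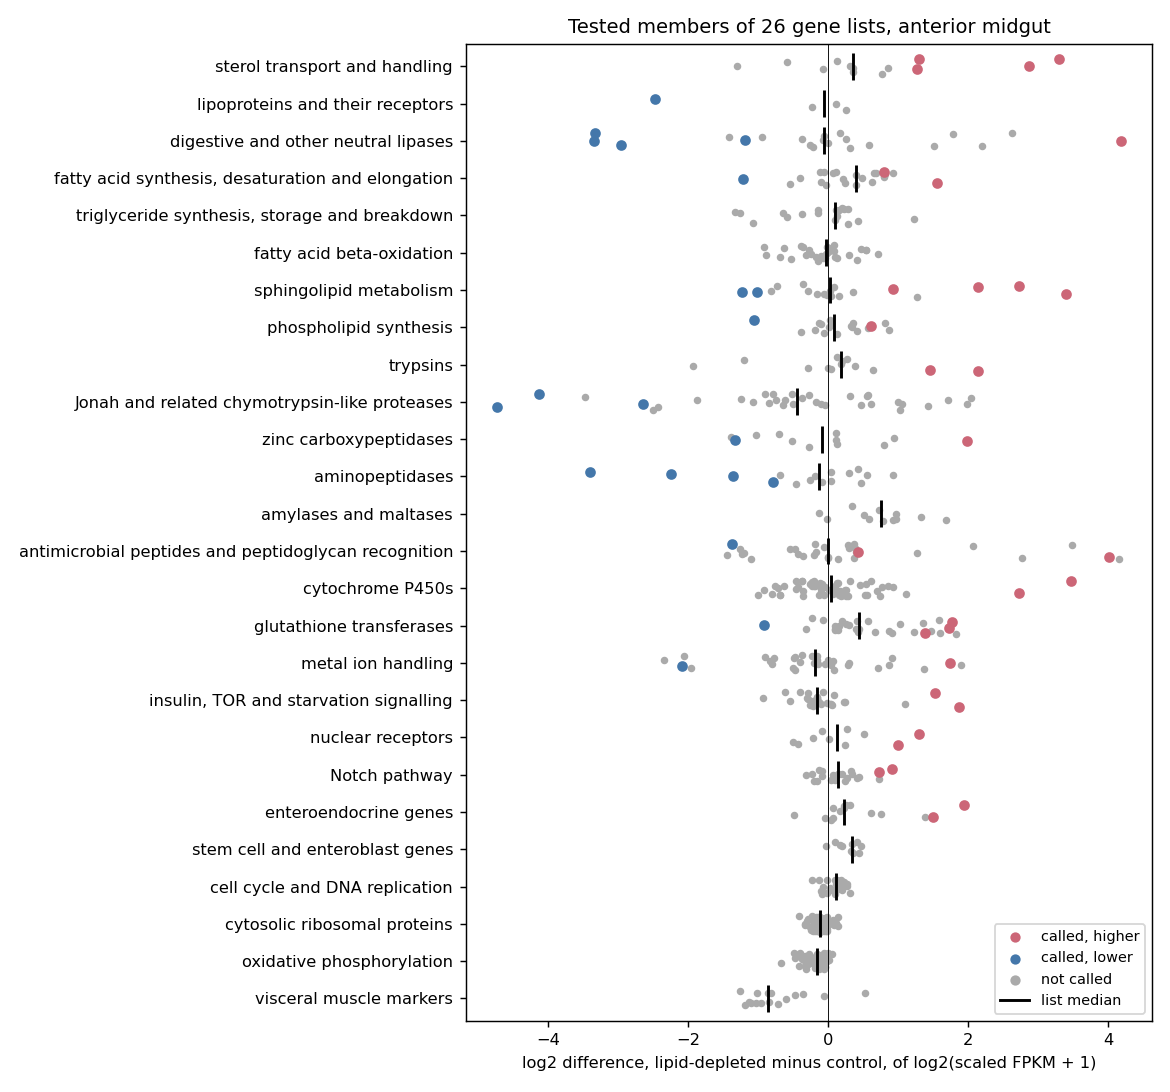
Log2 difference (lipid-depleted minus control) of every tested member of 26 gene lists, 1 point per gene; red points were called higher, blue points called lower and grey points not called, and the black bar is the list median. The visceral muscle list has the lowest median, log2 −0.85, with 0 of its 16 genes called.

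Several called genes lay side by side or overlapped, a pattern looked at after the values were seen. Of 8324 pairs of tested genes that are next to each other along a chromosome, 33 had both genes called, 29 of them in the same direction, and 52 of the 264 called genes were in such a same-direction pair. Of all tested genes 3.17% were called, and no expected count of pairs was worked out. Part of the pairs overlap, among them ERR and CR45869, Fancl and CR44192, and CG31414 and CR44052. Such pairs can share reads, since the kit does not mark strand. On chromosome 3R, prt, CG31468, CG31148 (Gba1a) and CG31414 (Gba1b) follow each other between 23696372 and 23708512, and all 4 rose, by log2 3.88, 4.89, 2.72 and 2.14. Next to Npc2e, 4 further genes rose: CG12811 (log2 1.174), CG3925 (log2 0.65), Fancl (log2 1.83) and the overlapping CR44192 (log2 1.33), between 10047252 and 10054298 on chromosome 3R. Neighbouring falls were CG31091 and CG31089, 470 bases apart, CG9825 and CG9826, 1447 bases apart, CG31233 and CG31198, 1086 bases apart, and CG18179 and CG18180, 872 bases apart. Muc68E and CG42397 lay 105 bases apart on chromosome 3L and fell by log2 1.08 and 2.71. The files do not say how reads that fit 2 neighbouring or overlapping genes were assigned, and the part of this in the result was not tested.

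The posterior libraries, which share no library with the anterior ones, gave the response of the other region. Of the 138 anterior rises 117 (84.8%) were also higher on the lipid-depleted diet in the posterior midgut, and of the 126 falls 114 (90.5%) were also lower, against 62.1% of all tested genes with the same direction in both regions. For the rises the median log2 difference was 1.28 in the anterior region and 0.61 in the posterior one, and −1.17 and −0.50 for the falls. These genes were chosen by their anterior call, so the smaller posterior medians are a description.

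A direct test of the difference between regions, (LD_a − CD_a) − (LD_p − CD_p), called 48 of 8335 genes (0.576%), and 16 of them were among the 264 anterior calls, a description, since both tests use the anterior libraries. The 48 became 29 without anterior lipid-depleted replicate 2 or 3, 30 without anterior control replicate 2, 29 and 26 without posterior lipid-depleted replicate 2 and 3, 27 and 31 without posterior control replicate 1 and 2, and 16 without anterior lipid-depleted replicates 2 and 3 together. CG18179 differed most, by log2 −6.23, SE 0.51, adjusted p = 1.68e-07, with 2.67 ± 0.644 and 9.75 ± 4.23 in the posterior control and lipid-depleted groups (SD, n = 3). LpR1 fell in the anterior, while the posterior control and lipid-depleted groups read 9.67 ± 3.21 and 14.2 ± 3.1 (difference of log2 −3.02, SE 0.70, adjusted p = 0.0485). CG31233 (log2 −2.24, adjusted p = 0.035) and CG6659 (log2 −1.55, adjusted p = 0.0191) fell more in the anterior midgut. A further 4 genes, chosen after their values were seen, fell in the anterior midgut and had a higher mean on the lipid-depleted than on the control diet in the posterior: the ABC transporter gene CG4562 (Mrp5; log2 −1.65, adjusted p = 0.0248), CG7912 (log2 −1.93, adjusted p = 0.0317), stl (log2 −2.31, adjusted p = 0.00707) and Nrx-1 (log2 −1.30, adjusted p = 0.037). Their anterior log2 differences were −1.24, −1.59, −1.56 and −0.89, and the anterior Nrx-1 call was lost without lipid-depleted replicate 1 or control replicate 1 (0.0672 to 0.0902). In the posterior control and lipid-depleted groups CG7912 read 0.89 ± 0.232 and 1.48 ± 0.784, and stl 0.797 ± 0.287 and 1.99 ± 0.148. These levels are near the floor, so the region differences of CG7912 and stl rest largely on the anterior fall. In a fit of the 6 anterior libraries alone the anterior calls of CG4562 (0.0633), stl (0.211) and Nrx-1 (0.122) were lost. The region difference of CG4562 was lost on FPKM as deposited (0.12), that of CG7912 with a pseudocount of 0.1 (0.322), that of Nrx-1 with either (0.112 and 0.102), and that of stl with a pseudocount of 5 (log2 −1.05, adjusted p = 0.0687).

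The other 8 of the 16 genes rose in the anterior midgut and rose less or fell in the posterior. CG13135 (log2 2.27, adjusted p = 0.00796) and rau (log2 2.59, adjusted p = 0.0427) were low in the posterior midgut on both diets, at 0.603 ± 0.547 and 1.7 ± 0.661 on the lipid-depleted one. The CG13135 difference became log2 0.95 with a pseudocount of 0.1 (adjusted p = 0.972) and was lost on FPKM as deposited (0.0566). CG10924 (Pepck2; log2 2.15, adjusted p = 0.00904) and bgm (log2 4.26, adjusted p = 0.00702) went from 72 ± 15.9 to 46.2 ± 1.25 and from 65.2 ± 21.3 to 13 ± 1.61 in the posterior midgut. The posterior-marked genes iotaTry (log2 3.89, adjusted p = 0.00306), lambdaTry (log2 2.32, adjusted p = 0.0422), CG15534 (log2 4.40, adjusted p = 0.00624) and CG7442 (SLC22A; log2 2.22, adjusted p = 0.00913) were each lower in the posterior lipid-depleted group than in the posterior control group. CG7442, chosen after its values were seen, read 3.88, 2.19 and 3.31 in the control libraries and 7.12, 17.4 and 18.4 in the lipid-depleted ones in the anterior midgut (log2 1.81, adjusted p = 0.000788). For Npc1b (log2 1.89, adjusted p = 0.371), Npc2e (log2 1.47, adjusted p = 0.347), Hr96 (log2 0.50, adjusted p = 0.966) and fng (log2 −0.04, adjusted p = 0.993) no difference between regions was called. Leaving out single libraries of the 12, here named by diet, region and replicate as LD_a1 and so on, ended part of the calls. LpR1 was lost whichever of the 12 libraries was left out (0.0591 to 0.184). CG31233 was lost without each of them except CD_a3, LD_p1 and CD_p1 (0.068 to 0.121). CG6659 was lost without each of them except LD_a1, CD_a3, LD_p1, LD_p2 and CD_p1 (0.0522 to 0.0728). CG4562 was lost without each of them except LD_a2, LD_a3, CD_a3, LD_p1 and CD_p2 (0.0625 to 0.0923). CG7912 was lost without each of them except CD_a3, LD_p1 and CD_p3 (0.0502 to 0.123). Nrx-1 was lost without each of them except LD_a3 and LD_p1 (0.0594 to 0.146). rau was lost without each of them except LD_a1 (0.0641 to 0.14). lambdaTry was lost without each of them except CD_a2 and CD_p3 (0.0547 to 0.165).

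Of the 8 genes with the smallest adjusted p in this test, 7 changed in the posterior libraries and stayed near 0 in the anterior ones. They were wntD, CG43208, CG10051, CG30043, CG32379 and NAAT1, which were lower on the lipid-depleted diet in the posterior midgut, and CG43729 (Stacl), which was higher there. Their anterior values were at most 4.24, the maximum being NAAT1 in lipid-depleted replicate 3.

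**Figure D5:**
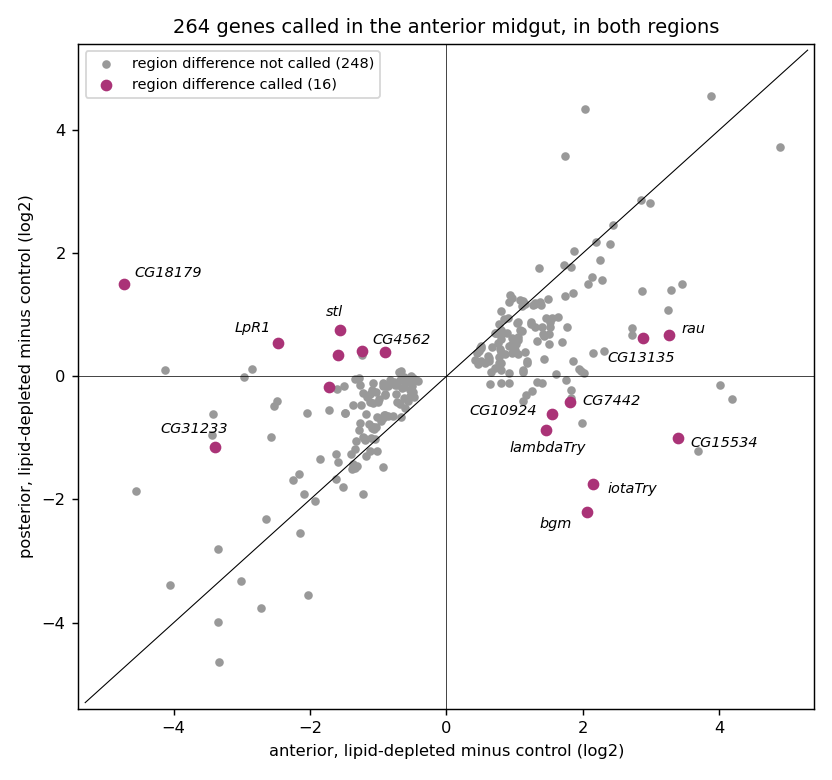
Log2 difference (lipid-depleted minus control) in the anterior (x) and the posterior midgut (y) for the 264 genes called in the anterior; the diagonal marks equal responses. Purple points are the 16 genes whose region difference was called, and grey points the others.

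Against the high-cholesterol diet, the lipid-depleted diet differed in 516 of 8335 genes in the anterior midgut (6.19%), 246 higher (2.95%) and 270 lower (3.24%). Both comparisons use the lipid-depleted libraries. The 516 became 239 without lipid-depleted replicate 2, 210 without lipid-depleted replicate 3, 797 without high-cholesterol replicate 1, 205 without high-cholesterol replicate 2, 158 without high-cholesterol replicate 3 and 79 without lipid-depleted replicates 2 and 3 together. On FPKM as deposited the median of all genes was log2 0.57 and 3631 genes were called higher and 106 lower, so the split depends on the scaling. No difference between the altered diets was called for Npc1b (high cholesterol 282 ± 169; log2 0.88, adjusted p = 0.287), Npc2e (3257 ± 1048; log2 0.39, adjusted p = 0.6), Hr96 (133 ± 44.3; log2 0.13, adjusted p = 0.84), Thor (2372 ± 1275; log2 −0.09, adjusted p = 0.95) or Men (465 ± 177; log2 −0.24, adjusted p = 0.821). A missed threshold does not show that the diets act alike. The spread on high cholesterol was wide, with an SD over 30% of the mean in each of these 5 genes. In each of them the high-cholesterol mean, like every lipid-depleted library, lay above every control library. The called falls CG10505, hh and pnt had high-cholesterol means of 77.0, 5.93 and 6.11 against control means of 382, 15.1 and 21.3. Of the 264 genes called against the control diet, 107 also differed between the altered diets. Which changes are particular to lipid depletion was not tested.

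The altered diets differed for CG31233, at 495 ± 47.1 on high cholesterol (log2 −4.22, adjusted p = 2.17e-07), LpR1 at 56.5 ± 23.6 (log2 −3.24, adjusted p = 0.000539), dmGlut at 139 ± 16.8 (log2 −3.64, adjusted p = 8.54e-05) and CG6659 at 113 ± 34.1 (log2 −1.82, adjusted p = 8.54e-05), all lower on the lipid-depleted diet. They also differed for Irp-1B at 282 ± 76.5 (log2 −1.44, adjusted p = 8.54e-05), Acon at 574 ± 78.1 (log2 −1.15, adjusted p = 0.000116) and CG31198 at 738 ± 46.7 (log2 −1.67, adjusted p = 0.000116), in the same direction. The Acon difference was not called on FPKM as deposited (0.104). Higher on the lipid-depleted diet were Cyp4s3, at 0.423 ± 0.198 on high cholesterol (log2 3.10, adjusted p = 4.41e-05), CG13957 at 7.03 ± 1.07 (log2 1.93, adjusted p = 0.000116), CG31414 at 0.199 ± 0.169 (log2 2.38, adjusted p = 0.000548) and fng at 5.08 ± 0.555 (log2 1.05, adjusted p = 0.00189). Ctr1B stood higher on high cholesterol, at 445 ± 114 (log2 −1.97, adjusted p = 0.00841), than on either other diet.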

How the data were processed

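Poly(A) RNA was measured with the TruSeq RNA v2 kit, which does not mark strand. The authors deposited FPKM per gene and library, made with bcl2fastq 2.17.1.14, Bowtie2 2.2.9, TopHat2 2.1.1 and Cufflinks 2.2.1 on dm6, per the submitters' processing notes; the handling of reads that match several places is not stated in those notes. Of 17488 genes, 103 with a failed estimate in any of 30 libraries were left out of the fit across libraries; 56 of them were tested in the 6 libraries alone. Values were divided per library by the median of ratios over 8584 genes above 0 in every library, with factors of 0.865 to 1.20 for the 6 libraries compared. The 8335 genes whose scaled FPKM averaged 1 or more across the 30 libraries were fitted as log2(scaled FPKM + 1) with limma 3.58.1 (R 4.3.3), with 10 group means, 20 residual degrees of freedom and a prior variance that follows the level; calls are at a Benjamini-Hochberg adjusted p under 0.05. On simulated data of 8335 genes with 200 changed, limma called 70.2% of changes of log2 1 and 92.9% of changes of log2 2 in the simulated comparison, and 4.73% of calls were false. The simulation drew independent normal noise with 1 spread per gene for all 30 libraries and changed only genes above a set control level. It held no likeness between particular replicates and no weak changed genes, so these rates may not hold for the real libraries. Fold changes are ratios of mean scaled FPKM. Positions are those of the files, counted from 1. Alternatives were other scalings, pseudocounts of 0.1 and 5, other filters, the groups alone, a replicate block and leaving out libraries.

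The members and gene lists were chosen with earlier results of these data known. The rule for named genes took the 15 largest rises and 15 largest falls without overlap between diets, up to 6 called members of each list by adjusted p, tested members of the sterol, lipoprotein, nuclear receptor, Notch, enteroendocrine and stem cell lists, and the 8 smallest adjusted p of each further test; 14 genes, the neighbouring genes and those left out of the fit were chosen after their values were seen. After values were seen, CG32699, Gba1a and a secretory pathway gene were taken out of lists they did not belong to and the selection of oxidative phosphorylation genes was corrected. Sequences were not used here.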

Additional observations from a re-analysis of the deposited data

Results flagged for a closer look

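The response to the lipid-depleted diet differed between the anterior and the posterior midgut, by limma's test of the difference of the differences at an adjusted p under 0.05, for 23 of the genes described above. The anterior log2 difference exceeded the posterior one for CG30043 (by 4.68), NAAT1 (4.58), CG15534 (4.40), CG32379 (4.35), bgm (4.26), iotaTry (3.89), CG10051 (3.53), CG43208 (3.29), wntD (2.96), rau (2.59), lambdaTry (2.32), CG13135 (2.27), CG7442 (2.22) and CG10924 (2.15). It was below the posterior one for CG18179 (by −6.23), LpR1 (−3.02), CG43729 (−2.36), stl (−2.31), CG31233 (−2.24), CG7912 (−1.93), CG4562 (−1.65), CG6659 (−1.55) and Nrx-1 (−1.30). That of CG13135 became 0.95 with a pseudocount of 0.1 (adjusted p = 0.972), and was not called on FPKM as deposited (adjusted p = 0.0566). The LpR1 difference was lost whichever compared library was left out, and with a pseudocount of 0.1 or 5 (limma adjusted p = 0.0543 and 0.0671). Those of CG31233, CG6659, CG4562, CG7912, Nrx-1, rau and lambdaTry were lost without any of several single libraries, as given above. For CG18179 the groups read 305, 289 and 224 against 10.8, 9.39 and 7.70 in the anterior midgut and means of 2.67 against 9.75 in the posterior. For wntD, CG43208, CG10051, CG30043, CG32379, NAAT1 and CG43729 the values that differ lie in the posterior libraries. Posterior-marked genes stood at a median of 7.02% and 7.18% of their posterior level on the same diet in anterior lipid-depleted replicates 2 and 3, and their part in the differences of CG15534, iotaTry, lambdaTry and CG7442 was not tested.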

How the results depend on the processing

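None of the 103 genes named here that limma called across the 30 libraries changed direction under any alternative, and 19 kept their call under every planned one. The 264 calls became 148 when only the 6 libraries were fitted, 217 when that fit took every gene estimated in them with a mean of at least 1 (added after the data were seen), 123 without lipid-depleted replicates 2 and 3 (added after the data were seen), 52 with replicates 2 and 3 averaged in every group, and 115 to 202 with single libraries left out. The 48 region differences became 29 with a pseudocount of 0.1, 16 without those replicates, 7 with the averaged ones and 26 to 51 with single libraries left out. The 516 differences from high cholesterol became 3737 on FPKM as deposited (3631 higher, 106 lower), 159 in the groups alone, 79 without those replicates, 42 with the averaged ones and 158 to 797 with single libraries left out. The sharp falls in count have fewer samples by construction; for the pseudocount and for FPKM as deposited the cause was not tested. Residuals of same-numbered libraries correlated at 0.189, 0.111 and 0.0266 across diets, and only replicate 1 correlated best with its own number. Lipid-depleted replicate 1 correlated at −0.132 and −0.101 with control replicates 2 and 3. Lipid-depleted replicates 2 and 3 correlated at −0.192 and −0.0895 with control replicate 1 and at 0.0266 to 0.125 with control replicates 2 and 3. Residuals of the 3 libraries of a group sum to 0 for each gene. The opposite signs are therefore partly built in and are no separate observation. Within each diet replicates 2 and 3 were the closest pair. Whether replicate 1 was handled apart from them is not labelled and was not tested. A replicate block gave 256, 35 and 498 calls. Among genes not called, leaving out single libraries moved the log2 difference across 0 for Npc2f (−0.17 to 1.49), mag (−0.24 to 0.13), Mtp (−0.065 to 0.26), N (−0.045 to 0.27) and Tk (−0.015 to 0.54). That of mag was 0.0092 on FPKM as deposited. Without lipid-depleted replicates 2 and 3 the sign also turned for N (−0.25), Dl (−0.13), E(spl)m3-HLH (−0.13), arr (−0.083) and esg (−0.016). Depth is unknown in absolute terms, which limits genes near 0.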
